A study of Mus musculus with 8 samples.

Results

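Voltage-gated sodium channels, voltage-gated calcium channels and the hyperpolarization-activated HCN channels were examined as 1 group of genes in infarcted and sham-operated mouse hearts with and without cardiomyocyte Piezo1 deletion. The members were taken by gene symbol (Scn, Cacna1, Cacna2d, Cacnb, Cacng and Hcn genes), which gave 44 of the 33249 genes in the deposited table. By class they were 10 Nav α genes, 4 Nav β genes, 10 Cav α1 genes, 4 Cav α2δ genes, 4 Cav β genes, 8 Cav γ genes and 4 Hcn genes. A mean of at least 0.5 FPKM (fragments scaled to transcript length and library size) was reached by 18 members, which were tested, and 26 stayed below it.

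In cardiomyocytes the Nav channel opens first and carries the upstroke of the action potential, the L-type calcium channel follows and triggers calcium release from the sarcoplasmic reticulum, and T-type and HCN channels serve mainly the pacemaker tissue. The α and α1 genes encode the pore, while β, α2δ and γ genes encode partner proteins that alter trafficking and gating. Remodelling of these currents after infarction is a classic theme in arrhythmia research.

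RNA with poly(A) tails from mouse myocardium was sequenced in 8 libraries, 2 for each of 4 groups. Piezo1Cko (CKO) mice carried floxed Piezo1 and Myh6-MerCreMer, a Cre recombinase that tamoxifen switches on in cardiomyocytes, and Piezo1fl/fl (fl/fl) littermates carried the floxed alleles without the transgene. GEO's characteristics call these genotypes Piezo1 knockout and WT. Tamoxifen was given for 5 days from 4 weeks of age, and at 8 weeks mice underwent coronary ligation (MI) or a sham procedure, with MI hearts taken at day 42. Whether fl/fl mice also received tamoxifen, and the day of the sham hearts, is not given in the sources used here. Floxed alleles were shared by all 4 groups, so no group had unmodified Piezo1. Deletion was aimed at cardiomyocytes, whereas the RNA came from whole tissue, in which fewer cells of a type and less RNA per cell cannot be told apart. The labels do not say whether the 2 libraries of a group came from separate animals, and p-values then measure only the spread between these libraries.

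Total counts were 73821747 to 88117573 per library, and mitochondrially encoded genes took 43.1% to 46.4% of them in sham and 19.9% to 24.2% in MI libraries. Levels are given as CPM, counts scaled to a common library size after TMM normalization. Piezo1, the targeted gene, had 53.5 to 88.3 CPM and was not lower in CKO (log2 fold change 0.10 ± 0.16 (SE) in sham and 0.03 ± 0.16 in MI, edgeR adjusted p = 1 and 0.972). These counts cover the whole gene and not only the floxed part. Esr1, part of whose sequence is in the MerCreMer transgene, was at 707 and 402 CPM in CKO-MI but at 5.52 and 7.6 in CKO-Sham, and it was at 331 in fl/fl-MI 2 against 7.75 in fl/fl-MI 1. By Esr1, then, both CKO-Sham libraries and fl/fl-MI 2 went against their labels.

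The library labelled fl/fl-MI 2 stood apart in a further way. The 5 atrial markers examined (Nppa, Myl4, Myl7, Sln and Bmp10), all above 0 in every library, summed to 19857 CPM there against 135 to 4450.3 in the other 7 libraries. Myl4 was at 2810.4 CPM and Bmp10 at 3834, where no other library passed 48 and 18.8. Values without this library are therefore given beside the main results for MI.

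All 9 cardiomyocyte markers were present in every library, with summed levels of 31695 to 36284 CPM in sham and 16919 to 34562 in MI. They moved both ways with MI, 2 called higher and 3 lower in edgeR. Actn2 was above sham in every MI library, and Myl2, Myl3 and Tnni3 were below. Fibroblast markers (5 of 5 called higher) summed to 1183 to 1291 CPM in sham and 1771 to 5172 in MI. Endothelial markers (4 of 4 called lower) summed to 1159.9 to 1187 CPM in sham and 384 to 579.8 in MI. Of 4 tested Schwann cell markers 3 were called lower, and the list summed to 29.9 to 42.4 CPM in sham and 11.3 to 27.6 in MI. Neuronal markers moved both ways, 2 called higher and 1 lower of 5 tested. The part of these markers in the MI results was not tested.

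**Figure D1:**
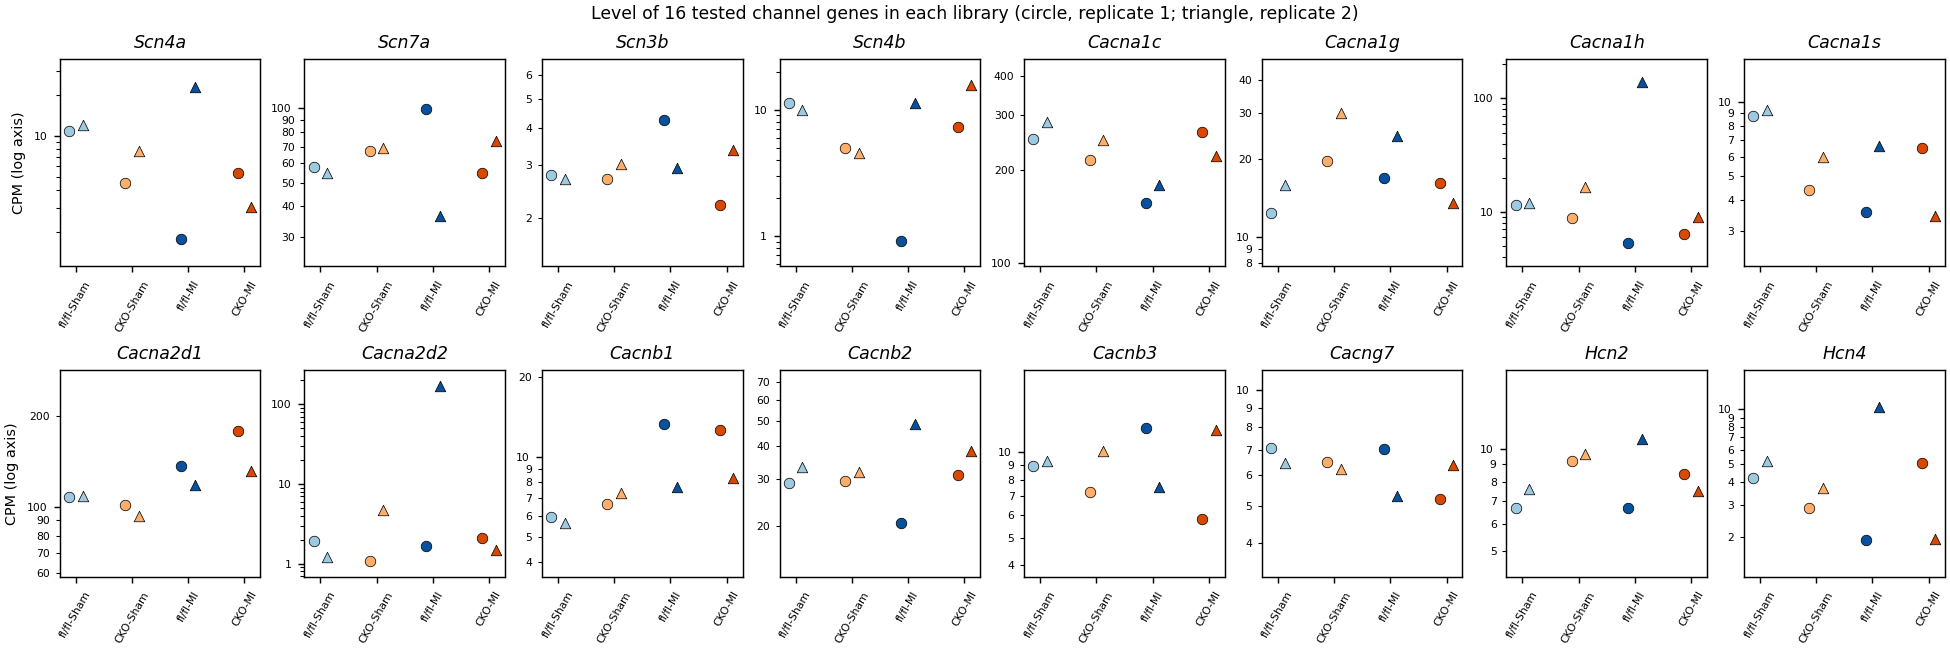
Level in CPM, on a log axis, of 16 tested channel genes in each of the 8 libraries. Circles are replicate 1 and triangles replicate 2 of each group. Cacna2d1 and Cacnb1 were higher in every MI library than in every sham library, while Cacna1h and Cacna2d2 had 1 high library, fl/fl-MI 2.

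Among tested members, 4 rose in MI hearts over both genotypes and 0 fell (edgeR's quasi-likelihood test, Benjamini-Hochberg adjusted p under the threshold of 0.05). Across all 14028 tested genes, 40.4% were called (22.0% higher and 18.3% lower), so the members' share was not above the background. Cacna2d1 and Cacnb1, both partner genes of the calcium channel, were among the 4, and no calcium channel pore gene was. At an unadjusted p under 0.05 there were 4 higher and 1 lower member, against 50.2% of all tested genes. DESeq2 without the FPKM filter called 6 of 44 higher and 3 lower, against 30.4% of the 22935 genes to which it gave an adjusted p. In every comparison it left some members with low counts, such as Cacna1f and Scn11a, without one. In 3 members every MI library was above every sham library (20.9% of all tested genes), and in 0 every MI library was below (19.5%). The median log2 fold change of tested members was 0.17 against 0.03 for all tested genes, with 13 of 18 above 0. Without fl/fl-MI 2 the median was -0.19 against 0.02, 7 of 18 were above 0, and 5 members were called higher and 4 lower (26.9% and 23.8% of all tested genes, 50.7% in all). Without fl/fl-MI 1 there were 6 higher and 1 lower (48.5% of all tested genes), and leaving out any 1 sham library or CKO-MI 1 left 1 called.

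Scn7a, an atypical family member that responds to sodium concentration and not to voltage, was at 54.7 to 69.3 CPM in sham, at 99.2 and 36.5 in fl/fl-MI and at 54.7 and 74.1 in CKO-MI, so the fl/fl-MI libraries lay on either side of all others. The MI difference was 0.09 ± 0.29 (edgeR adjusted p = 0.817). It was 0.37 ± 0.12 (edgeR adjusted p = 0.039) without fl/fl-MI 2 and -0.37 ± 0.12 (adjusted p = 0.0371) without fl/fl-MI 1, so its direction depended on which of them was kept. Scn4a, the skeletal muscle channel, was at 4.52 to 12.1 CPM in sham, 1.78 and 22.8 in fl/fl-MI and 5.35 and 3.05 in CKO-MI. Its MI difference was -0.22 ± 0.67 (edgeR adjusted p = 0.812) with all libraries. Without fl/fl-MI 2 it was -1.62, made up of -0.54 in CKO and -2.69 in fl/fl. The fl/fl value then rested on the single library fl/fl-MI 1.

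A further 7 α genes stayed under the filter. Scn3a, a channel of developing neurons, was at 4.84 to 7.88 CPM in sham and 0.881 to 3.32 in MI, with no overlap, and edgeR without the filter gave a difference of -1.53 ± 0.35 (adjusted p = 0.008), or -1.19 ± 0.20 (adjusted p = 0.000664) without fl/fl-MI 2. The summed Schwann cell, endothelial and sinoatrial markers were likewise lower in every MI library than in every sham library. The summed neuronal markers were not, at 32.9 to 40.5 CPM in sham and 34.3 to 65.1 in MI. The part of these markers in the Scn3a difference was not tested. Scn10a, the Nav1.8 channel of sensory neurons, was at 0.872 to 1.97 CPM in sham, 6.22 in fl/fl-MI 2, 0.916 in fl/fl-MI 1 and 0.319 and 0.299 in CKO-MI. Scn1a, Scn2a and Scn8a lay between 0.538 and 2.57 CPM in every library and Scn9a at or below 0.132. Scn11a had a count in 2 libraries only.

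The makeup of a class was computed from FPKM, which allows genes of different length to be compared. Scn7a took 31% to 36.4% of the summed FPKM of the 10 Nav α genes in sham, 36.3% and 16.2% in fl/fl-MI and 17.5% and 19.5% in CKO-MI. Scn4b held 10.7% to 26.6% of the 4 Nav β genes in sham, 1.22% and 23.7% in fl/fl-MI and 11.4% and 20.5% in CKO-MI. Cacnb1, Cacnb2 and Cacnb3 each held between 18.9% and 38.4% of the Cav β class in sham.

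**Figure D2:**
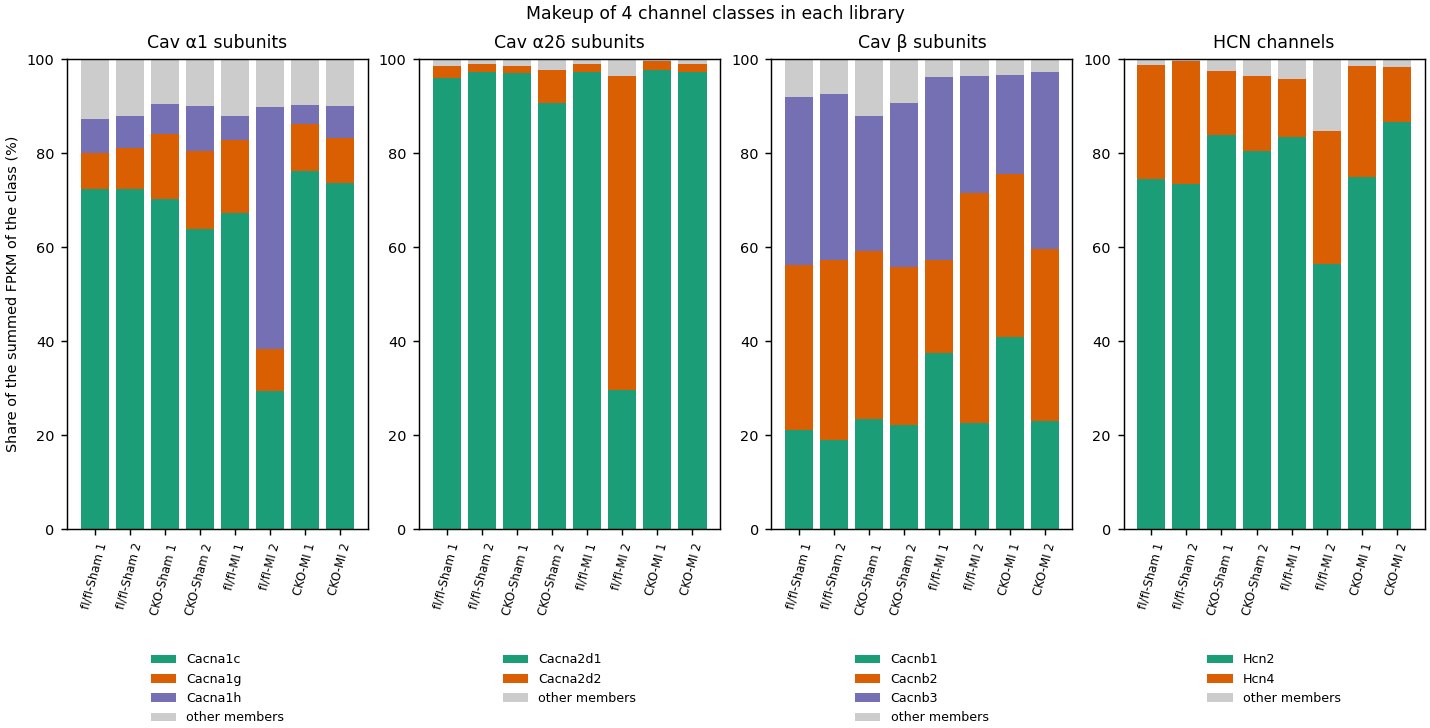
Share of the summed FPKM of 4 channel classes held by their leading members (stacked bars, %) in each library. Hcn2 leads its class in all 8 libraries and no Cav β gene passes 49.0%. In fl/fl-MI 2 Cacna1h (51.6%) and Cacna2d2 (66.9%) hold the largest share, as Cacna1c and Cacna2d1 do elsewhere. The levels of Cacna1c and Cacna2d1 were 178 and 118 CPM in fl/fl-MI 2, against 156 and 137 in fl/fl-MI 1.

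Of the Nav β subunits, small membrane proteins that bind the pore and adhesion molecules, Scn4b (β4) moved in no common direction. Values were 11.2 and 10 CPM in fl/fl-Sham, 4.94 and 4.51 in CKO-Sham, 0.916 and 11.3 in fl/fl-MI and 7.31 and 15.7 in CKO-MI. The 2 fl/fl-MI libraries differed by more than any groups did, and the MI difference of 0.24 ± 0.66 did not pass (edgeR adjusted p = 0.789). By genotype it was -0.80 ± 0.93 in fl/fl (edgeR adjusted p = 0.575) and 1.28 ± 0.94 in CKO (adjusted p = 0.349). Without fl/fl-MI 2 the difference over both genotypes was -1.12. The fl/fl difference was then -3.53 and rested on the single library fl/fl-MI 1. In CKO, whose comparison does not hold the library left out, it stayed at 1.28. Scn3b (2.21 to 4.23 CPM over all libraries) passed no test and Scn2b (0.803 to 2.11 CPM) was under the filter.

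Cacna1c, the Cav1.2 pore of the L-type calcium channel, was the most abundant calcium channel pore gene in 7 libraries, with 63.8% to 76.2% of the class FPKM there. It was at 252 and 284 CPM in fl/fl-Sham, 215 and 249 in CKO-Sham, 156 and 178 in fl/fl-MI and 264 and 222 in CKO-MI. Both fl/fl-MI libraries lay below all other libraries, and CKO-MI overlapped with sham. Cacna1c fell in fl/fl by 0.68 ± 0.17 on the log2 scale (edgeR adjusted p = 0.036), and in CKO the difference was 0.07 ± 0.17 (adjusted p = 0.794). Over both genotypes it was -0.31 ± 0.12 (adjusted p = 0.0793). The fl/fl call was lost without either fl/fl-Sham library or either CKO-Sham library (adjusted p from 0.0709 to 0.213). At a similar size (-0.64 to -0.72) it was also lost without the filter on low values and with the replicate block (edgeR adjusted p = 0.0624 in both) and with only the libraries compared (adjusted p = 0.102), while without fl/fl-MI 2 the difference was -0.78 ± 0.19 (adjusted p = 0.0211). On the FPKM scale, where the median of all tested genes was shifted up by 0.41 in MI, limma on log2(FPKM + 1) gave -0.11 in fl/fl (adjusted p = 0.585) and 0.23 over both genotypes. Relative to the median of all tested genes in each comparison, the fl/fl difference was -0.53 on the FPKM scale against -0.73 in edgeR, and the pooled difference was -0.18 against -0.34.

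T-type pores behaved differently from each other. Cacna1g (Cav3.1) was at 12.4 and 15.8 CPM in fl/fl-Sham, 19.6 and 30 in CKO-Sham, 16.8 and 24.5 in fl/fl-MI and 16.1 and 13.6 in CKO-MI. Each fl/fl-MI library was above each fl/fl-Sham library, and each CKO-MI library was below each CKO-Sham library. The differences were 0.55 ± 0.28 in fl/fl (edgeR adjusted p = 0.201) and -0.74 ± 0.28 in CKO (adjusted p = 0.095). Over both genotypes the difference was -0.09 ± 0.20 (edgeR adjusted p = 0.729), where the median of all tested genes was 0.03. On the FPKM scale it was 0.29, where that median was 0.41. Cacna1h (Cav3.2) was at 8.79 to 16.6 CPM in sham, 5.29 in fl/fl-MI 1, 6.36 and 9.11 in CKO-MI and 139 in fl/fl-MI 2. Its MI difference was 0.95 ± 0.80 (adjusted p = 0.376) with all libraries and -0.94 ± 0.26 (adjusted p = 0.0191) without fl/fl-MI 2, so 1 library set its direction.

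Cacna1s, the skeletal muscle L-type pore, was at 4.4 to 9.27 CPM in sham and 3.47 to 6.63 in MI and was not called. The other 6 α1 genes stayed under the filter. Cacna1d (Cav1.3), an L-type pore of atria and pacemaker tissue, was at 1.42 to 3.78 CPM in 7 libraries and at 16.3 in fl/fl-MI 2. Cacna1a, Cacna1b, Cacna1e and Cacna1i lay between 0.205 and 5.84 CPM. Cacna1f had a count in 1 library only, fl/fl-MI 2.

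Cacna2d1, the α2δ-1 subunit that carries the channel to the membrane, held 90.6% to 97.7% of its class in 7 libraries. It was at 108, 109, 101 and 93.3 CPM in sham, 137 and 118 in fl/fl-MI and 179 and 132 in CKO-MI, with every MI library above every sham library. The MI difference was 0.45 ± 0.13 (edgeR adjusted p = 0.0278) and 0.51 ± 0.12 (adjusted p = 0.0124) without fl/fl-MI 2, with 0.23 ± 0.18 in fl/fl (adjusted p = 0.394) and 0.68 ± 0.18 in CKO (adjusted p = 0.0353). The pooled call was lost without any 1 sham library or CKO-MI 1 (adjusted p from 0.0791 to 0.0977), and the CKO call without any 1 sham library or CKO-MI 1 (adjusted p from 0.0786 to 0.168).

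Cacna2d2 (α2δ-2) was at 1.09 to 4.74 CPM in 7 libraries and at 170.0 in fl/fl-MI 2, 35.9 times the highest of the others. It passed the FPKM filter only through fl/fl-MI 2, with 23.2 FPKM there and at most 0.46 elsewhere. It also stayed among the tested members when that library was left out. The MI difference of 2.55 ± 1.16 (edgeR adjusted p = 0.12) turned to -0.30 without that library (adjusted p = 0.646). Cacna2d3 was at 0.614 to 1.56 CPM in 7 libraries and at 9.58 in fl/fl-MI 2, and Cacna2d4 was at or below 0.169 throughout.

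The Cav β subunits sit on the inside of the channel and bring the pore to the membrane. Cacnb1, the skeletal muscle form, was at 5.63 to 7.3 CPM in sham, 13.3 and 7.69 in fl/fl-MI and 12.6 and 8.34 in CKO-MI, with no overlap. It rose by 0.72 ± 0.22 (edgeR adjusted p = 0.0383), or by 0.89 ± 0.18 (adjusted p = 0.00495) without fl/fl-MI 2, and the call was lost without any 1 sham library, fl/fl-MI 1 or CKO-MI 1 (adjusted p from 0.0653 to 0.133). Cacnb2, the main cardiac form, was at 29.2 to 33.3 CPM in sham, 20.5 and 48.8 in fl/fl-MI and 31.3 and 38.5 in CKO-MI, a difference of 0.16 ± 0.25 (adjusted p = 0.636). Cacnb3 (5.81 to 12.2 CPM) passed no test. Cacnb4, a neuronal form under the filter, was at 4.34 to 6.8 CPM in sham and 1.98 to 2.64 in MI, with no overlap, and edgeR without the filter gave -1.18 ± 0.22 (adjusted p = 0.00224), or -1.14 ± 0.21 (adjusted p = 0.0012) without fl/fl-MI 2. The marker sums named beside Scn3a were lower in MI here too, the neuronal sum was not, and their part was not tested.

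For Cacnb2 the estimated shares of transcripts that start at different first exons differed between MI and sham, a pattern that was picked out after the values were seen. The software that divided reads among transcripts is not given in the sources used here, and such a division is least certain where transcripts share most of their exons. ENSMUST00000193800 held 7.1%, 24.3%, 19.5% and 0% of the gene's summed transcript FPKM in sham and 57.3%, 44.1%, 50.3% and 58% in MI, a gap of 19.8 points. ENSMUST00000114719 held 27.5%, 10.2%, 28.1% and 39% in sham and at most 0.7% in MI. ENSMUST00000114723 overlapped, with 3.7% to 44.6% in sham and 7.4% to 34.7% in MI. These 3 forms open with different coding sequence (GENCODE M21, GRCm38, plus strand), shown here because it is what sets the forms apart, with the start codon in capitals, from chr2:14824256-14824306, chr2:14873877-14873945 and chr2:14604451-14604558.
ENSMUST00000193800: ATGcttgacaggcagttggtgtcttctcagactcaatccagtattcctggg
ENSMUST00000114719: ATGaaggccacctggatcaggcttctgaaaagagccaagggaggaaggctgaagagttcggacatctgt
ENSMUST00000114723: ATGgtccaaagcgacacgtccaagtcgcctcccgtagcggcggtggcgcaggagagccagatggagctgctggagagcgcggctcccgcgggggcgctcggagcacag
Of the 12 member genes with at least 2 transcripts and a mean of at least 1 FPKM, 5 had some transcript share that did not overlap between MI and sham, against 38.2% of the 9974 genes compared. The members were thus near the background. A further Cacnb2 transcript, ENSMUST00000193452 with a retained intron, held 0% to 35.8% in sham and 6.1% to 19.8% in MI.

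**Figure D3:**
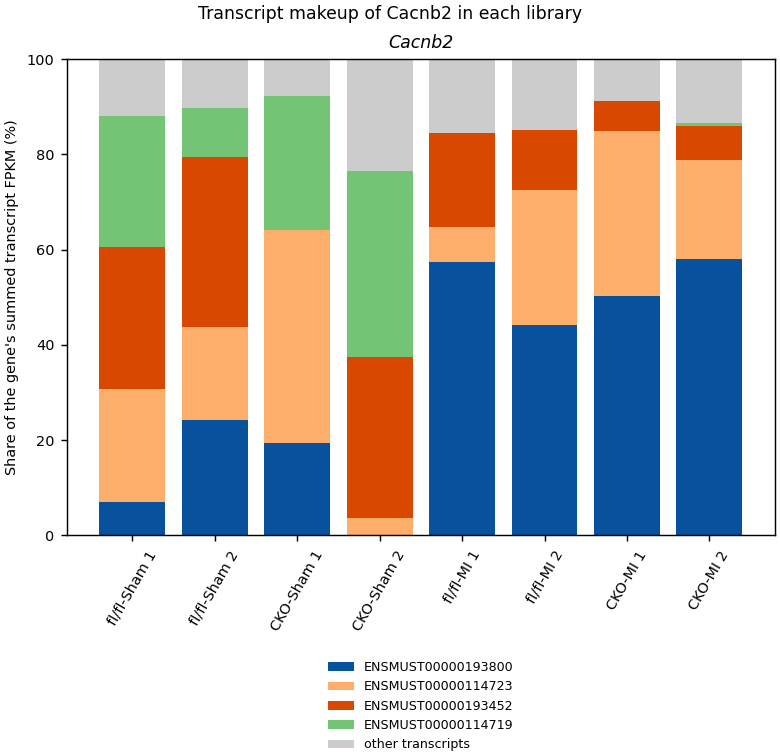
Share of the summed transcript FPKM of Cacnb2 held by its main annotated transcripts and by all others together (stacked bars, %) in the 8 libraries. ENSMUST00000193800 takes up to 24.3% in sham and at least 44.1% in MI.

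Among the γ subunits, Cacng7 was the only one tested, at 5.22 to 7.06 CPM over all libraries and with a MI difference of -0.13 ± 0.16 (edgeR adjusted p = 0.546). Cacng6, a skeletal muscle and cardiac form, was at 0.819 to 1.33 CPM in sham and 0 to 0.471 in MI, with no overlap, and edgeR without the filter gave -2.50 ± 0.85 (adjusted p = 0.0638). It passed when fl/fl-MI 2 was left out (edgeR adjusted p = 0.000183), where the fl/fl arm rested on 1 library at 0 CPM and no fold is given. The other 6 γ genes were at or below 0.773 CPM. Of 26 members under the filter, 3 (Scn3a, Cacnb4 and Cacng6) had all MI libraries below all sham libraries and 0 had all above, where 6.05% and 1.9% of the 19221 genes under the filter did. In edgeR without the filter 4 of 44 members were called higher and 2 lower (Scn3a and Cacnb4), against 10.3% and 6.77% of all genes. At an unadjusted p under 0.05 there were 7 higher and 3 lower, against 15.5% and 11.5%.

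The pacemaker channels showed no MI difference that passed. Hcn2, the prevailing ventricular form, was at 6.7 to 9.66 CPM in sham, 6.7 and 10.7 in fl/fl-MI and 8.45 and 7.5 in CKO-MI (0.02 ± 0.18, edgeR adjusted p = 0.939). Hcn4, the main sinoatrial form, was at 2.86 to 5.17 CPM in sham, 1.92 and 10.3 in fl/fl-MI and 5.09 and 1.95 in CKO-MI (0.24 ± 0.53, adjusted p = 0.74; -0.59 without fl/fl-MI 2). The 5 sinoatrial markers examined summed to 28 to 38.3 CPM in sham and 19.6 to 27.6 in MI, with Isl1 at 0 in 5 libraries. Most of that sum was Tbx3, at 18.3 to 30.3 CPM in sham and 6.1 to 16.2 in MI, while Shox2 was higher in every MI library (2.55 to 5.37) than in every sham library (0.887 to 2.48). Of 4 tested, 1 was called higher and 1 lower in edgeR, with a median log2 difference of 0.06. Hcn3 never passed 0.326 CPM. Within the class, Hcn2 held 56.4% to 86.6% of the summed FPKM.

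**Figure D4:**
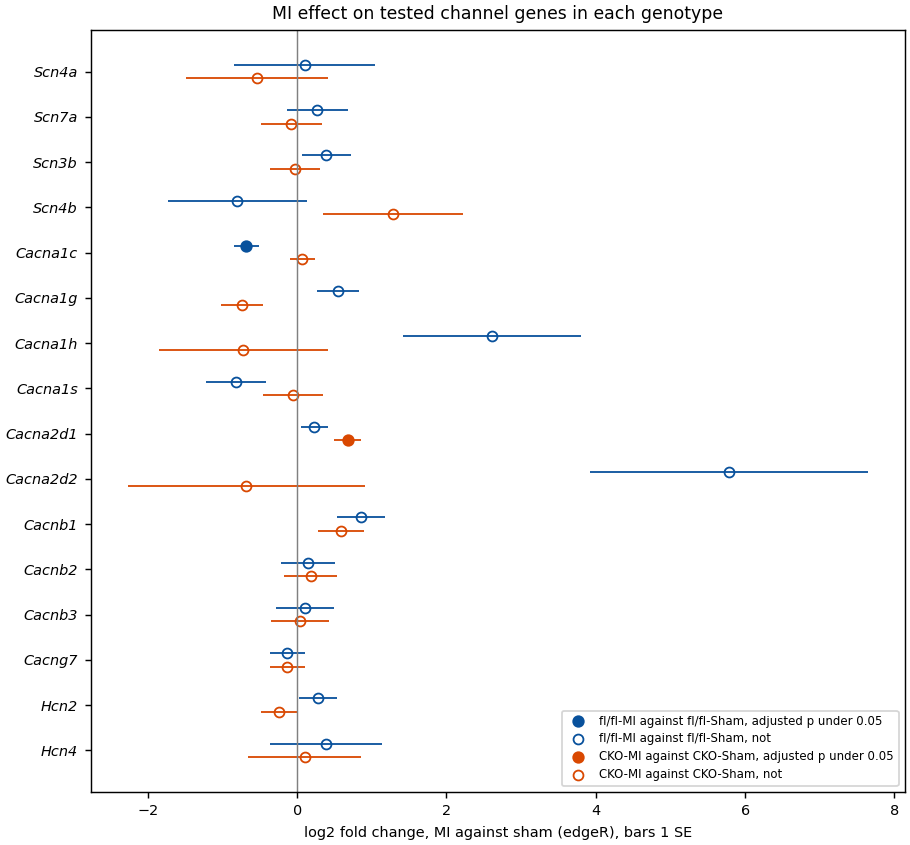
log2 fold change of MI against sham for 16 tested members in fl/fl (blue) and CKO (orange), from edgeR with all 8 libraries, with bars of 1 SE and filled points at an adjusted p under 0.05. Cacna1c is filled in fl/fl (-0.68) and Cacna2d1 in CKO (0.68).

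Within each genotype, 1 member was called higher and 1 lower (Cacna1c) in fl/fl-MI against fl/fl-Sham, against 18.5% of all tested genes called (10.1% higher and 8.45% lower). In CKO-MI against CKO-Sham, 2 were called higher (Cacna2d1 among them) and 0 lower, against 24.7% of all tested genes (12.8% higher and 11.9% lower). The counts at an unadjusted p under 0.05 were 4 higher and 1 lower in fl/fl (36.3% of all tested genes) and 3 higher and 1 lower in CKO (39.9%). DESeq2 called 7 higher and 2 lower in fl/fl (18.6% of the genes it tested) and 2 higher and 3 lower in CKO (21.2%). Without fl/fl-MI 2, 4 were called higher and 4 lower in fl/fl (29.5%) and 4 higher and 1 lower in CKO (41.3%).

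Whether Piezo1 deletion alters the infarcted heart is asked by CKO-MI against fl/fl-MI, where 1 of the 2 fl/fl-MI libraries had Esr1 at 331 CPM, toward the 707 and 402 of the CKO-MI libraries. No member was called (0 of 18), nor was any of the 14028 genes (0.0%), with edgeR's quasi-likelihood test. At an unadjusted p under 0.05 there were 2 members higher and 2 lower, against 8.31% of all tested genes (3.07% higher and 5.24% lower). DESeq2 called 1 of 44 members higher and 2 lower (Scn10a among them), and 1.15% of all genes it tested. Among the 2 higher members was Cacna1c (0.54 ± 0.17, edgeR adjusted p = 0.549), with both CKO-MI libraries above both fl/fl-MI libraries, as in 14.5% of all tested genes. Cacna1g was the 1 tested member with both CKO-MI libraries below both fl/fl-MI libraries, as in 15.5%.

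Both lower members, Cacna2d2 (-5.57 ± 1.83, edgeR adjusted p = 0.551) and Cacna1h (-3.22 ± 1.22, adjusted p = 0.566), were high in fl/fl-MI 2 alone. Without that library they were at 0.13 and 0.55, while Cacna1c was at 0.64 ± 0.19 (edgeR adjusted p = 0.26). Again no member passed in edgeR, against 0.192% of all tested genes, and the unadjusted p was under 0.05 for 5 higher (among them Cacna1c, Scn4a, Scn4b and Cacnb2) and 1 lower (Scn7a), against 11.8%, with fl/fl-MI 1 then the only library of its group and assumed to vary like the others. Without fl/fl-MI 1 instead, fl/fl-MI 2 was the only library of its group. The log2 differences were then 0.84 for Scn7a, -6.54 for Cacna2d2, -4.15 for Cacna1h and -2.42 for Scn4a. Scn7a and Scn4a thus turned in direction with the fl/fl-MI library that was kept. Cardiomyocyte markers moved with this: without fl/fl-MI 2, 9 of 9 were higher in CKO-MI, with a median log2 difference of 0.52, and 0 were called. With all libraries 6 of 9 were higher and the median was 0.26. Their part in the channel differences was not tested.

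**Figure D5:**
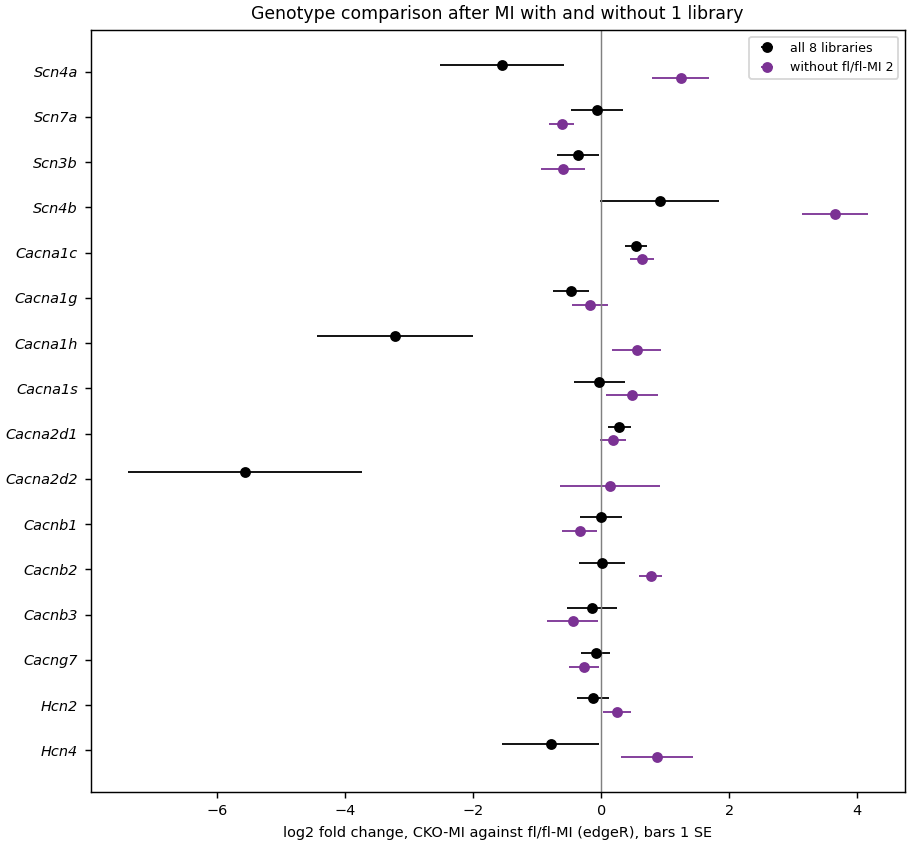
Genotype difference after MI, as CKO-MI over fl/fl-MI on the log2 scale, for 16 tested members, from edgeR with all 8 libraries (black) and without the library fl/fl-MI 2 (purple), with bars of 1 SE. Cacna1c (0.54 and 0.64) moves little, while Cacna2d2 and Cacna1h go from -5.57 and -3.22 to 0.13 and 0.55.

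In all, 4 of 44 members were at least 5 times as high in fl/fl-MI 2 as in any other library, against 3.13% of all genes with a count. Cacna1f, with a count in fl/fl-MI 2 only, is not among the 4, whereas the 3.13% includes genes of that kind. Among the 4 were Cacna2d2, Cacna1h (8.36 times) and Cacna2d3 (6.13 times). Cacna1d was 4.32 times and Scn10a 3.15 times as high as in the next library. Of the tested members, 6 of 18 were highest in that library, against 19.9% of all tested genes. Cacna2d2, among the 6, passed the FPKM filter only through its value there. Atrial markers were high in the same library, and their part in these values was not tested.

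In CKO-Sham Esr1 was at 5.52 and 7.6 CPM against 8.36 and 6.41 in fl/fl-Sham, so by Esr1 the labels did not set these groups apart. Between them 0 members were called with edgeR, against 0.00713% of all tested genes, and 0 with DESeq2, against 0.144%. At an unadjusted p under 0.05 there was 1, Cacna1g, against 3.89% of all tested genes. Its difference was 0.81 ± 0.28 (edgeR adjusted p = 1). Again 0 members were called without fl/fl-MI 2, against 0.0214%.

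The interaction asks whether the MI difference differed between the genotypes as labelled. By Esr1, both CKO-Sham libraries and fl/fl-MI 2 went against those labels. No member passed (0 of 18, and 0.0% of all tested genes) with edgeR, DESeq2 called 0 higher and 1 lower of 44 (against 0.588% of the genes it tested), and at an unadjusted p under 0.05 there were 4 members, against 8.49% of all tested genes. Among them were Cacna1c (0.75 ± 0.24), Cacna1g (-1.29 ± 0.40) and Cacna2d2 (-6.46 ± 2.38), with an adjusted p of 0.574 each in edgeR. Cacna1c and Cacna1g kept their direction with each library left out in turn, from 0.63 to 0.90 and -1.57 to -0.95. Without fl/fl-MI 2 the interaction was -0.77 for Cacna2d2 and 0.44 for Cacna1h. Without fl/fl-MI 1 it was -7.42 and -4.26, but fl/fl-MI 2, the library in which both genes were high, then stood alone for its group.

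Of 39 gene symbols listed for partners and regulators of these channels, 38 were found and 27 were tested. In MI over both genotypes, 13 of these rose and 4 fell (edgeR adjusted p under 0.05), where 22.0% and 18.3% of all tested genes did. Their median log2 fold change was 0.43 against 0.03 for all tested genes. When fl/fl-MI 2 was left out, 13 rose and 6 fell (26.9% and 23.8% of all tested genes), with a median of 0.25 against 0.02. Fgf14, which binds the tail of sodium channels, rose by 1.86 ± 0.35 (adjusted p = 0.0068), from 1.69 to 1.97 CPM in sham to 3.42 to 9.64 in MI. Cbarp, a calcium channel β-binding protein, rose by 1.39 ± 0.42 (adjusted p = 0.0347), from 1.79 to 2.15 CPM to 2.36 to 15.4, with its top value in fl/fl-MI 2, and by 0.74 ± 0.23 (adjusted p = 0.0311) without that library. Rrad, a small GTPase that restrains L-type current, rose by 1.27 ± 0.33 (edgeR adjusted p = 0.0208), from 57.7 to 95 CPM to 102 to 308, again highest in fl/fl-MI 2. Without that library the pooled difference was 0.77, with 0.11 in fl/fl and 1.42 in CKO. Rrad was at 102 CPM in fl/fl-MI 1 against 95 and 93.6 in fl/fl-Sham, and at 57.7 and 60.4 in CKO-Sham. The rise of Fgf14 without fl/fl-MI 2 was 2.14 ± 0.22 (adjusted p = 0.000297).

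Cabp1, a calmodulin-like calcium channel regulator, fell by 2.10 ± 0.18 (edgeR adjusted p = 0.000671), from 19.6 to 23.8 CPM in sham to 2.86 to 8.23 in MI, with no overlap. Rem1, from the same GTPase family as Rrad, fell by 1.41 ± 0.34 (adjusted p = 0.0164), from 7.38 to 8.53 CPM to 1.17 to 4.73. Rangrf, a sodium channel trafficking factor, fell by 0.82 ± 0.21 (adjusted p = 0.0206). The differences of Cabp1, Rem1 and Rangrf without fl/fl-MI 2 were -1.99, -1.12 and -1.01, each past the threshold in edgeR. Within genotypes 8 rose and 2 fell in fl/fl, where 10.1% and 8.45% of all tested genes did, and 8 rose and 1 fell in CKO, where 12.8% and 11.9% did. These counts without fl/fl-MI 2 were 7 and 5 in fl/fl (29.5% of all tested genes in either direction) and 11 and 7 in CKO (41.3%). Between CKO-MI and fl/fl-MI no partner gene passed in edgeR, as none of all tested genes did (0.0%). An unadjusted p under 0.05 was reached by 6 of 27, against 8.31% of all tested genes. Of these, Fgf12, Mrvi1, Gem, Cbarp and Calm2 had their top value in fl/fl-MI 2, and Cabp1 did not. Fgf12 was at 110.4 CPM there and at most 2.12 elsewhere. Without that library the log2 differences were -0.06 for Fgf12, -0.03 for Mrvi1 and -0.49 for Gem. They were -0.48 for Cbarp, -0.20 for Calm2 and 0.81 for Cabp1.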

How the data were processed

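Poly(A) RNA of mouse myocardium was measured in 8 libraries, grouped by their labels. Reads were paired-end, 150 bases, and the submitters' processing notes name cutadapt 1.9 and FastQC. The aligner, counter and genome build are not given in the sources used here; all 44 members were found in GENCODE M21 (GRCm38), 38 with the same coordinates. For each gene and transcript the authors deposited whole-number counts, without normalization, and FPKM values, which scale counts to length and library size. Low counts pile up at multiples of 4, so 1 read pair was read as about 4 counts. Members and lists were chosen with earlier results of these data known.

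Counts were tested with edgeR 4.0.16 (R 4.3.3; quasi-likelihood test, TMM, Benjamini-Hochberg adjustment) for the 14028 genes whose FPKM averaged 0.5 or more, with a mean per group over all 8 libraries. Genes were named where they belonged to a cardiac set, passed the adjusted test in any comparison, or passed the unadjusted test between genotypes. For MI, 3 partner genes were named each way by size. Some members and their values are not reported here. Class makeup and transcript shares were computed from FPKM without a test. Alternatives were limma 3.58.1 on log2(FPKM + 1) and log2(FPKM + 0.1), DESeq2 1.42.0, no filter, RLE, no mitochondrial genes, counts divided by 4, only the libraries compared, a replicate block, another call rule, and each library left out; leaving out fl/fl-MI 2 for the partner genes and for the fit without a filter was added after seeing the data. The test was checked on simulated counts. For 1 gene, the smallest two-sided p of an exact permutation test is 0.33 with 2 libraries against 2. Python 3.11.15 and pandas 2.3.3 served for tables.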

Additional observations from a re-analysis of the deposited data

Results flagged for a closer look

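In the MI libraries, 2 members had 1 library far from the other 3 by Dixon's criterion on log2 CPM, both in fl/fl-MI 2: Cacna1h at 139 CPM and Cacna2d2 at 170.0 CPM. In the sham libraries, Scn2a stood apart at 0.997 CPM in fl/fl-Sham 2, under 1.96 to 2.23 in the other 3. These were 3 of 65 sets of 4 libraries examined, and chance alone gives about 1 in 20.

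The MI difference went opposite ways in the genotypes as labelled, in every library, for Cacna1g (interaction -1.29, edgeR adjusted p = 0.574). Its unadjusted interaction p was under 0.05.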

How the results depend on the processing

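Called members are counted here, higher then lower, for MI against sham over both genotypes, MI in fl/fl, MI in CKO, genotype after MI and genotype in sham (CKO against fl/fl). RLE scaling, leaving out mitochondrial genes and dividing counts by 4 kept every count. With limma on log2(FPKM + 1), MI in fl/fl had 6 and 0 and MI in CKO 4 higher; with log2(FPKM + 0.1) these were 6, 0 and 5. Without a filter, MI against sham had 2 lower, MI in fl/fl 3 and 0, and MI in CKO 2 lower. DESeq2 had 3 lower in MI against sham, 7 and 2 in MI in fl/fl, 3 lower in MI in CKO, 1 and 2 in genotype after MI and 1 lower in the interaction. Only the libraries compared gave 0 and 0 in MI in fl/fl, 4 higher in MI in CKO and 1 lower in genotype in sham. An unadjusted p under 0.05 with 2-fold change gave 0 higher in MI against sham, 0 lower in MI in fl/fl, 1 higher in MI in CKO, 2 lower in genotype after MI and 2 lower in the interaction. For these the cause was not tested, beyond the larger number of members fitted without a filter.

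With each library left out, counts ranged from 1 to 6 and 0 to 4 in MI against sham, 0 to 4 and 0 to 4 in MI in fl/fl, 0 to 4 and 0 to 1 in MI in CKO, 0 to 2 and 0 to 3 in genotype after MI, and 0 to 2 lower in the interaction. Over both genotypes the log2 difference crossed 0 for Cacna2d2 (-0.30 to 3.25), Cacna1h (-0.94 to 1.40), Scn4b (-1.12 to 0.67), Scn4a (-1.62 to 0.21), Scn7a (-0.37 to 0.37), Cacnb2 (-0.21 to 0.39), Cacna1g (-0.24 to 0.08), Hcn2 (-0.17 to 0.15) and Hcn4 (-0.59 to 0.60). It also did for Scn4b in fl/fl (-3.53 to 0.07), Cacna1c in CKO (-0.08 to 0.19), and Cacna2d2 (-6.54 to 0.13) and Cacna1h (-4.15 to 0.55) in genotype after MI. Other reversals over both genotypes were Cacna1c (0.23 and 0.25), Cacna1g (0.29 and 0.45) and Scn4a (0.05) on the FPKM scale, and Hcn2 (-0.01) without mitochondrial genes. The median of all tested genes was itself at 0.41 with log2(FPKM + 1) and 0.56 with log2(FPKM + 0.1), above each of these FPKM values. The Hcn2 share of its class was 60.9% in CPM against 76.7% in FPKM.

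The replicate numbers did not pair the libraries (correlations of same-numbered deviations -0.21 to 0.06). With the replicate block, MI in fl/fl had 0 and 0, Scn4b in MI against sham was -0.10, and the other counts did not change. Crossing the CKO-MI numbers, chosen after seeing the data, left 0 and 0 in genotype after MI. At this depth 3 read pairs are 0.113 to 0.205 CPM, and Scn9a and Scn11a, at or under it in every library, carry no comparison.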

Other observations

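Transcript shares of Cacna1g, the Cav3.1 pore, set fl/fl-MI 2 apart from the other MI libraries in a gene whose level there was within the range of the rest. ENSMUST00000107789 held 41.6% to 60.6% of the gene's summed transcript FPKM in sham and 49.3% in fl/fl-MI 2, but 3.5%, 1.5% and 13.7% in fl/fl-MI 1, CKO-MI 1 and CKO-MI 2. ENSMUST00000103166 held at most 0.4% in sham and 0% in fl/fl-MI 2, against 45.4%, 28.9% and 15.6% in the same 3 libraries. Both were picked out after the values were seen and were not tested.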
